A study of Ovis aries with 8 samples.

Results

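The RNA of 39 genes of the citric acid cycle and its feeder reactions was followed in pancreatic islets of near-term sheep fetuses. These genes encode the carriers and complexes that bring pyruvate into mitochondria, the enzymes of the cycle, the anaplerotic enzymes that refill it, and the shuttles that carry reducing equivalents and citrate across the mitochondrial membrane. A member was the row of the deposited table whose gene name was exactly its symbol. The table held 35 of the 39 among its 25000 rows. All 35 passed the abundance filter, a mean of at least 1 FPKM (fragments per kilobase of transcript, relative to library size) over the animals, as did 13252 rows in all. PDHA1, PDHB and DLAT, which encode the catalytic core of the pyruvate dehydrogenase complex, and GLUD1, which encodes glutamate dehydrogenase, are not listed under these symbols and were not analysed here.

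Of 8 singleton Columbia-Rambouillet fetuses, 4 received norepinephrine into a vein for 7 days, at 1 µg/min on day 1, 2 µg/min on days 2 to 4 and 4 µg/min on days 5 to 7. The 4 Saline-Control fetuses were given only the diluent, 0.9% saline with 0.3% ascorbic acid. Norepinephrine fetuses were 137 to 139 days of gestation and weighed 2.8 to 3.7 kg, and controls were 139 to 140 days and weighed 3.6 to 5 kg. Each animal was a separate fetus, norepinephrine 3 and control 2 were female, and the islets were picked by hand, so they hold several endocrine cell types and some neighbouring cells.

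As background, pyruvate made from glucose enters the mitochondrion through the carrier formed by MPC1 and MPC2. There the pyruvate dehydrogenase complex turns it into acetyl-CoA, or pyruvate carboxylase (PC) turns it into oxaloacetate. Beta cells are known for feeding pyruvate through both routes, and the citrate and malate that leave the mitochondrion support NADPH production in the cytosol, which has been linked to insulin secretion. Norepinephrine acutely restrains that secretion through alpha-2 adrenergic receptors.

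The islet label was checked first. Of 16 islet endocrine markers 15 were listed and tested, and their summed level was 11705 to 18151 FPKM with norepinephrine and 8745 to 15034 FPKM in controls. Of 18 acinar markers 10 were listed, with sums of 136 to 1022 FPKM with norepinephrine and 124 to 172 FPKM in controls. Of 8 duct markers 6 were listed, with sums of 179.7 to 513 FPKM with norepinephrine and 117 to 217 FPKM in controls. No listed marker was at 0 in all animals. The sums of endothelial, mesenchymal, leukocyte, and Schwann and neuron markers overlapped between groups, and the 2 listed erythroid markers summed to under 1 FPKM in every animal. The part of acinar and duct cells in the results given here was not tested. In bulk islets, fewer cells of a type and less RNA per cell cannot be told apart.

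Each label carries an animal number that begins with 09 or 10, digits whose meaning is not stated. Norepinephrine 1, 3 and 4 and control 2 are numbered 09, and norepinephrine 2 and controls 1, 3 and 4 are numbered 10. Summed FPKM was 768021 to 796149 in animals numbered 10 and 981583 to 1112624 in animals numbered 09, while the upper quartile of all rows lay between 16.7 and 17.4 FPKM in every animal. Because 3 of 4 norepinephrine animals are numbered 09 and 3 of 4 controls 10, the number enters the treatment comparison, and its values are given beside the results. A difference within number 09 or within number 10 is that between the groups among the animals so numbered, where 1 group holds a single animal.

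Mean levels over the 8 animals ran from 10.3 FPKM for PC to 551 FPKM for MPC1, at the 38.8 and 98.4 percentiles of all tested genes. Only 3 members, PC, SLC25A12 and PDP1, lay below the median of the tested genes (15.7 FPKM). The coefficient of variation over all 8 animals, the SD as a percent of the mean, had a median of 18.0% over the members, beside 19.4% over tested genes with a mean of at least 10 FPKM. It was under 10% for 5 members: DLD (2.97%), OGDH (3.93%), CS (5.26%), DLST (8.51%) and PDK2 (9.95%). DLD, OGDH and DLST are the subunits of the oxoglutarate dehydrogenase complex. It was over 30% for MPC1 (39.8%), MPC2 (31.5%), PDK1 (34.7%), PDK4 (45.5%) and IDH3G (30.3%).

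**Figure D1:**
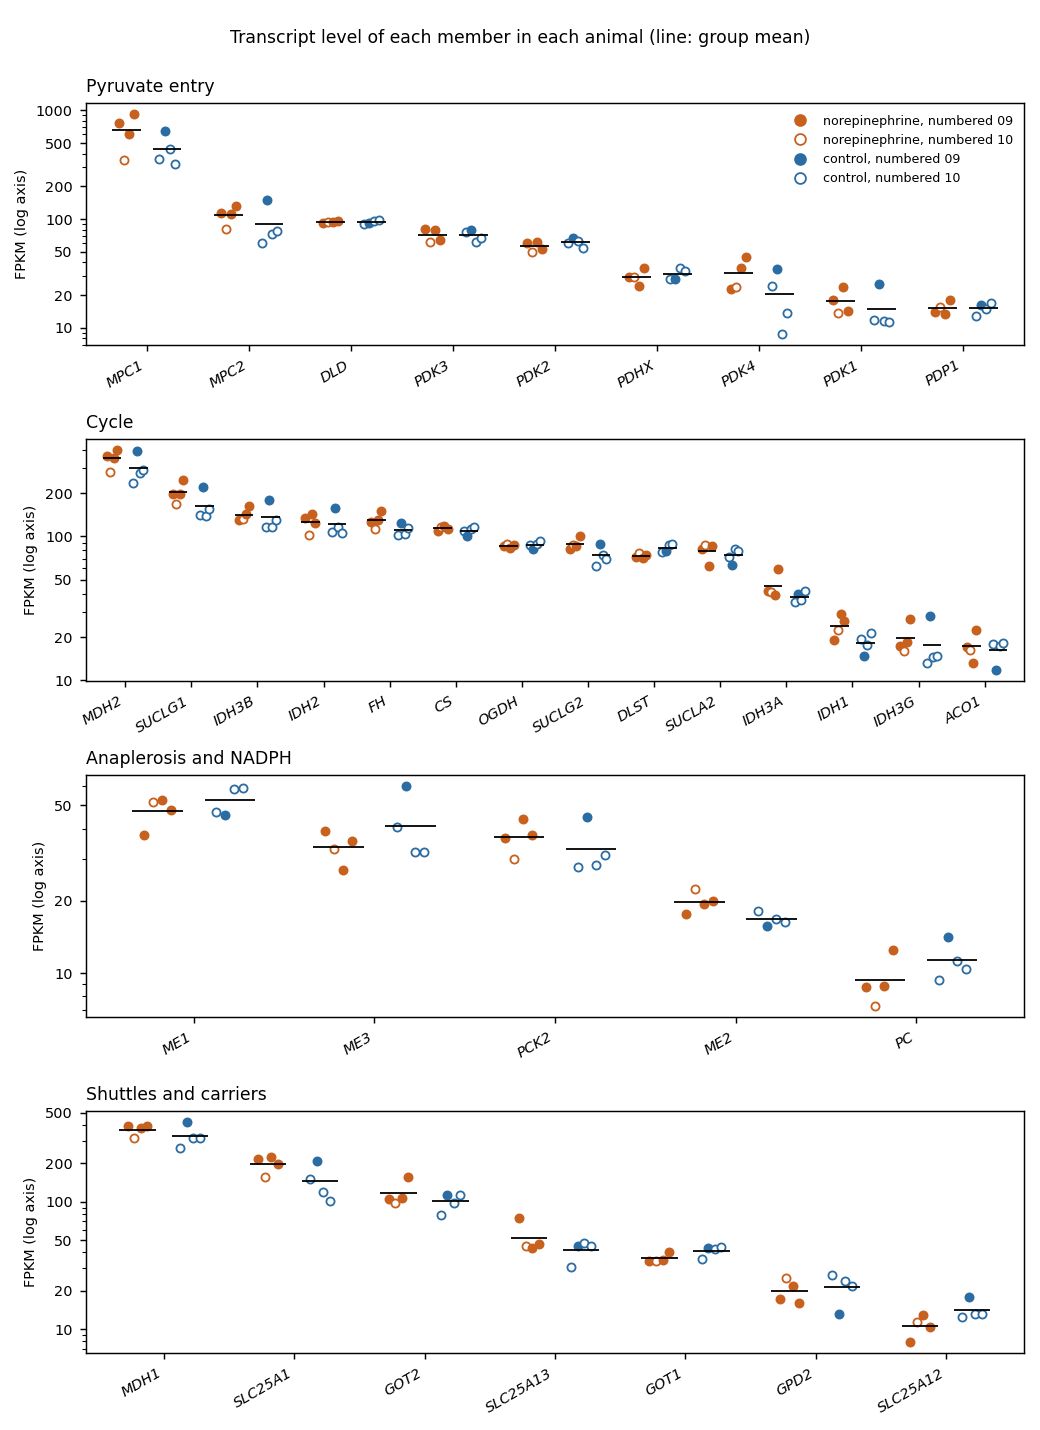
FPKM of the 35 members on a log axis, by role, with norepinephrine animals at the left and controls at the right of each gene. Filled points are animals numbered 09, open points animals numbered 10, and lines are group means. DLD, OGDH and CS hardly vary, while MPC1, PDK4 and PDK1 spread widely and in MPC1 the open points of both groups lie lowest.

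The main comparison asked whether 7 days of norepinephrine left these transcripts at another level. By limma on log2(FPKM + 1), 0 of the 35 members passed an adjusted p of 0.05, as did 0 of all 13252 genes (0%), and the lowest adjusted p among the members was 0.666. At an unadjusted p under 0.05 there was 1 member, IDH1 (2.86%), where 7.36% of all tested genes were under it. The median log2 difference of the members, norepinephrine minus control, was 0.085, beside 0.017 for all tested genes. With the number prefix in the model these medians were 0.0044 and -0.018. Higher means with norepinephrine were seen in 22 members and lower means in 13, where 52.6% of all tested genes had a higher mean. The differences ran from -0.39 for SLC25A12 to 0.74 for PDK4. The groups did not overlap in 1 member, DLST (2.86%), lower with norepinephrine, where 4.23% of all tested genes did not overlap and 2.35% lay lower without overlap. With the number prefix in the model 0 members passed after adjustment (lowest adjusted p = 0.377) and 1 gene of the whole table did (0.00755%), and 4 members (11.4%) had an unadjusted p under 0.05, beside 11.7% of all tested genes. Without control 2 the count of members with an unadjusted p under 0.05 was 9 (MPC1, MPC2, PDK1, PDK4, SUCLG1, SUCLG2, MDH2, PCK2 and SLC25A1), where 16.6% of all tested genes were under it. Without norepinephrine 2 it was 2 (MPC1 and SLC25A1), beside 11.4% of all tested genes, and it was 0 without control 1 (5.42% of all tested genes) or control 3 (4.49%).

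**Figure D2:**
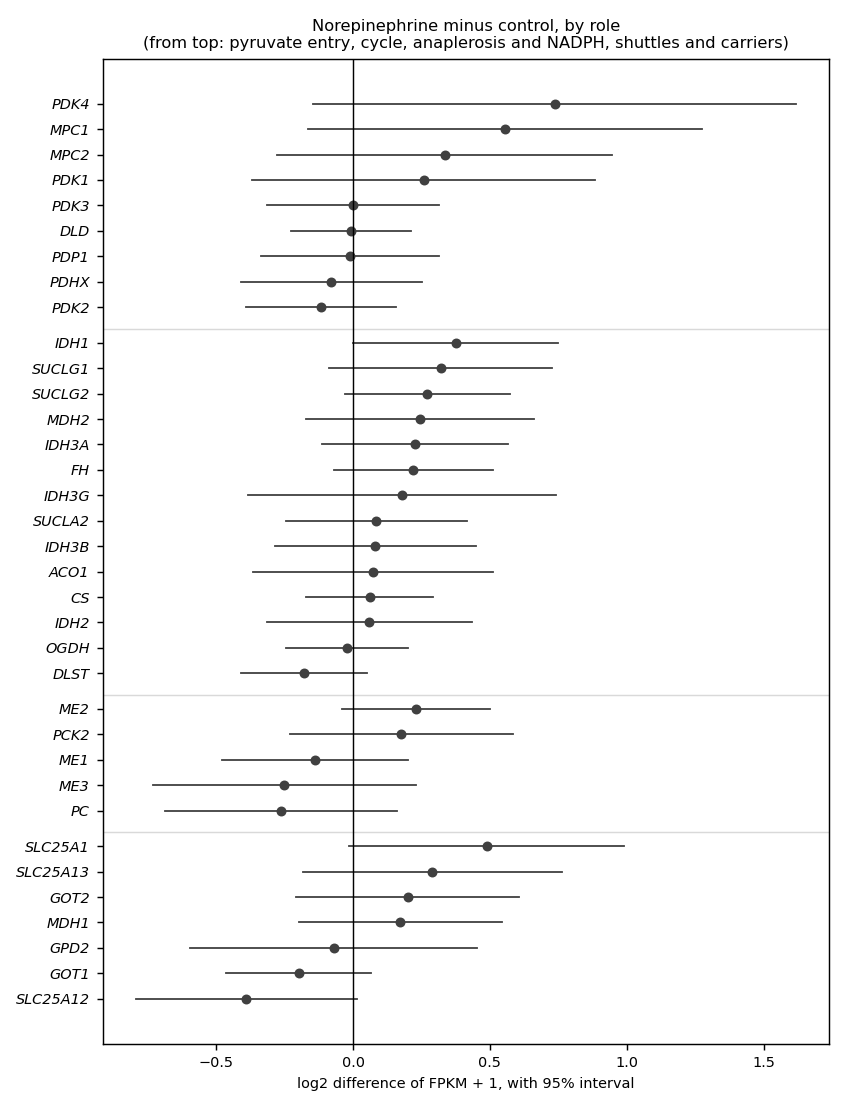
Log2 difference of FPKM + 1, norepinephrine minus control, of each member with its 95% interval from limma, grouped by role. Every interval but that of IDH1 spans 0, and the intervals of DLD, OGDH and DLST are the narrowest.

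Of 9 pyruvate entry genes, 4 had higher and 5 lower means with norepinephrine, and none passed after adjustment. MPC1 is on chromosome 8 (87995562 to 87996759, build Oar_v3.1 throughout), a locus of 1198 bases, the shortest of any member. Whether this row covers the whole gene was not tested, so its level is less certain. MPC1 was at 768, 352, 610.0 and 921 FPKM in norepinephrine animals 1 to 4, against 359, 640.1, 438 and 322 FPKM in control animals 1 to 4. The groups overlapped: the highest values were all in animals numbered 09, and norepinephrine 2 lay at the level of the controls numbered 10. The log2 difference was 0.56 (SE 0.32, limma adjusted p = 0.719). It was 0.083 once the prefix entered the model, 0.24 within number 09 and -0.074 within number 10. MPC2 (chromosome 1, 118189104 to 118215825), its partner in the carrier, was at 113, 80.5, 111 and 132 FPKM with norepinephrine and 60.6, 149.9, 73.4 and 78.0 FPKM in controls. Control 2 held the highest MPC2 value of all animals, and the log2 difference of 0.33 turned to -0.073 with the prefix in the model.

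Of the pyruvate dehydrogenase complex, DLD (chromosome 4, 48950573 to 48976889), the dihydrolipoamide dehydrogenase that it shares with the oxoglutarate complex, was the steadiest member. Its values were 91.3, 94.2, 93.4 and 95.4 FPKM with norepinephrine and 90.8, 91.0, 95.8 and 98.7 FPKM in controls, so the groups covered almost the same range. The 95% interval of its log2 difference was -0.23 to 0.21. PDHX, the protein that anchors DLD to the complex, stood at 29.6 ± 4.64 FPKM with norepinephrine and 31.2 ± 3.76 FPKM in controls (SD, n = 4 animals a group here and below), with a log2 interval of -0.41 to 0.25.

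The pyruvate dehydrogenase kinases, which switch the complex off by phosphorylation, were led by PDK3 and PDK2. PDK3 stood at 70.9 ± 9.93 FPKM with norepinephrine and 70.8 ± 8.19 FPKM in controls, and PDK2 at 56.3 ± 5.74 FPKM with norepinephrine and 61.2 ± 5.60 FPKM in controls. As shares of the summed FPKM of the 4 kinases, PDK3 held 40.2% ± 3.41 with norepinephrine and 42.6% ± 3.08 in controls, and PDK2 held 32.0% ± 1.65 and 37.1% ± 4.70 in the same order. PDK4 (chromosome 4, 12768760 to 12781448), the kinase known to rise with fasting and fatty acids, had the largest difference of all members. It was at 22.9, 23.9, 35.4 and 44.9 FPKM with norepinephrine, against 24.4, 34.5, 8.70 and 13.7 FPKM in controls. Controls 3 and 4 lay below all norepinephrine animals and controls 1 and 2 among them. The log2 difference was 0.74 (SE 0.39, limma adjusted p = 0.699). It was 0.32 once the prefix entered the model, -0.055 within number 09 and 0.70 within number 10. PDK1, the hypoxia-inducible kinase, was at 18.0, 13.8, 23.9 and 14.3 FPKM with norepinephrine and 11.8, 25.4, 11.7 and 11.2 FPKM in controls, where control 2 stood alone. PDP1, the phosphatase that switches the complex on again, averaged 15.2 FPKM with norepinephrine and 15.3 FPKM in controls, with a log2 interval of -0.33 to 0.31.

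Within the cycle, 12 of 14 members had higher means with norepinephrine, beside 52.6% of all tested genes, and none passed after adjustment. The median log2 difference of these 14 was 0.13, and 0.092 with the prefix in the model. CS, citrate synthase (chromosome 3, 162970617 to 162991754), was at 108, 116, 119 and 113 FPKM with norepinephrine and 108, 101, 112 and 117 FPKM in controls, with a log2 interval of -0.17 to 0.29. IDH1 (chromosome 2, 209236699 to 209259307), the cytosolic NADP-dependent isocitrate dehydrogenase, was at 19.0, 22.3, 28.9 and 26.0 FPKM with norepinephrine, against 19.3, 14.8, 17.7 and 21.2 FPKM in controls. Norepinephrine 2, 3 and 4 lay above all controls and norepinephrine 1 among them. The log2 difference of IDH1 was 0.37 (SE 0.17, limma unadjusted p = 0.0498, adjusted p = 0.666), with 0.68 within number 09 and 0.20 within number 10.

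IDH2, the mitochondrial NADP-dependent isocitrate dehydrogenase (chromosome 18, 20589314 to 20606110), was at 135, 103, 143 and 124 FPKM with norepinephrine and 107, 158, 115 and 106 FPKM in controls. The 4 highest values belonged to the 4 animals numbered 09, in both treatment groups. ACO1, the cytosolic aconitase that also serves as an iron sensor, stood at 17.3 ± 3.83 FPKM with norepinephrine and 16.3 ± 3.07 FPKM in controls. The NAD-dependent isocitrate dehydrogenase of the mitochondrion is built from IDH3A, IDH3B and IDH3G. IDH3A stood at 45.3 ± 9.40 FPKM with norepinephrine and 38.2 ± 3.16 FPKM in controls, IDH3B at 142 ± 14.8 FPKM with norepinephrine and 135 ± 30.2 FPKM in controls, and IDH3G at 19.6 ± 4.80 FPKM with norepinephrine and 17.7 ± 6.99 FPKM in controls. IDH3B made up 68.8% ± 2.53 of the summed FPKM of these 3 genes with norepinephrine and 70.6% ± 1.36 in controls.

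The oxoglutarate dehydrogenase complex was measured in full. OGDH, its decarboxylase (chromosome 4, 76827114 to 76881294), averaged 86.0 ± 2.41 FPKM with norepinephrine and 87.5 ± 4.46 FPKM in controls, with a log2 interval of -0.25 to 0.20. DLST, its succinyltransferase (chromosome 7, 83045443 to 83062618), was at 72.0, 77.1, 70.9 and 73.8 FPKM with norepinephrine and 77.8, 79.6, 87.0 and 89.2 FPKM in controls. All 4 norepinephrine animals lay below all 4 controls, although norepinephrine 2 and control 1 were almost equal. The difference was small, -0.18 on the log2 scale (SE 0.10), and did not pass (limma adjusted p = 0.719). It was -0.14 within number 09 and -0.13 within number 10.

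Succinyl-CoA ligase joins the shared subunit SUCLG1 to SUCLG2, which makes GTP, or to SUCLA2, which makes ATP. SUCLG1 (chromosome 3, 56150389 to 56177606) was at 198, 168, 197 and 246 FPKM with norepinephrine and 141, 219, 139 and 154 FPKM in controls. Control 2 stood with the norepinephrine animals and apart from the other controls. SUCLG2 stood at 88.8 ± 7.78 FPKM with norepinephrine and 73.8 ± 10.9 FPKM in controls (log2 0.27, SE 0.13, limma adjusted p = 0.681), and SUCLA2 at 79.1 ± 11.7 FPKM with norepinephrine and 74.3 ± 8.44 FPKM in controls. FH, fumarase, stood at 129.9 ± 15.8 FPKM with norepinephrine and 111 ± 10.5 FPKM in controls. MDH2, the mitochondrial malate dehydrogenase (chromosome 24, 34135113 to 34177170), was the most abundant enzyme of the cycle list. It was at 364, 282, 350.0 and 397 FPKM with norepinephrine and 233, 392, 273 and 289 FPKM in controls, a log2 difference of 0.24 (SE 0.18) that was 0.0044 with the prefix in the model. The table lists MDH2 at the same locus as STYXL1.

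Of the anaplerotic enzymes 2 of 5 had higher and 3 had lower means with norepinephrine, and none passed after adjustment. PC, pyruvate carboxylase (chromosome 21, 44151992 to 44247626, a locus it shares with an unnamed Ensembl row), was the least abundant member. It was at 8.79, 7.27, 8.80 and 12.5 FPKM with norepinephrine, against 9.37, 14.2, 11.3 and 10.4 FPKM in controls. Norepinephrine 1, 2 and 3 lay below all controls, and norepinephrine 4 was second only to control 2. The log2 difference was -0.26 (SE 0.19, limma adjusted p = 0.773), with -0.48 within number 09 and -0.45 within number 10. With the prefix in the model it was -0.47 (SE 0.16, limma unadjusted p = 0.0188, adjusted p = 0.377).

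Malic enzymes turn malate into pyruvate. ME1, the cytosolic NADPH-making form (chromosome 8, 10276893 to 10461247), was at 37.7, 51.7, 52.8 and 47.8 FPKM with norepinephrine and 46.7, 45.4, 58.3 and 59.0 FPKM in controls, with overlapping groups. ME2 (chromosome 23, 50596330 to 50639204), a mitochondrial form, was at 17.7, 22.5, 19.3 and 19.9 FPKM with norepinephrine and 18.1, 15.8, 16.8 and 16.3 FPKM in controls. Only norepinephrine 1 and control 1 broke the order of the groups in ME2. Its log2 difference was 0.23 (SE 0.12, limma adjusted p = 0.695), with 0.25 within number 09, 0.38 within number 10, and 0.32 once the prefix entered the model (unadjusted p = 0.0179, adjusted p = 0.377). ME3, the other mitochondrial form, stood at 33.5 ± 5.13 FPKM with norepinephrine and 41.1 ± 13.3 FPKM in controls, where control 2 reached 60.1 FPKM. Of the summed FPKM of the 3 malic enzymes ME2 held 19.7% ± 0.988 with norepinephrine and 15.3% ± 1.72 in controls. PCK2, the mitochondrial phosphoenolpyruvate carboxykinase (chromosome 7, 20656653 to 20664937), was at 36.6, 29.9, 43.7 and 37.7 FPKM with norepinephrine and 27.6, 44.8, 28.3 and 31.2 FPKM in controls, with control 2 highest of all.

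The malate-aspartate shuttle carries cytosolic NADH electrons inward. MDH1, its cytosolic malate dehydrogenase (chromosome 3, 44483983 to 44884123, a locus listed also for WDPCP), was at 392, 314, 377 and 392 FPKM with norepinephrine and 267, 422, 317 and 316 FPKM in controls. As in MDH2, the 4 animals numbered 09 held the 4 highest values. GOT1, the cytosolic aspartate aminotransferase, was at 34.1, 34.1, 34.9 and 40.2 FPKM with norepinephrine and 35.7, 43.4, 42.3 and 43.8 FPKM in controls. GOT2, its mitochondrial partner, was at 106, 97.6, 107 and 156 FPKM with norepinephrine and 78.9, 113, 98.3 and 113 FPKM in controls. Neither passed: the log2 differences were -0.20 for GOT1 (SE 0.12, limma adjusted p = 0.730) and 0.20 for GOT2 (SE 0.18, limma adjusted p = 0.799).

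The shuttle needs an aspartate-glutamate carrier, SLC25A12 or SLC25A13. SLC25A12 (chromosome 2, 136603071 to 136867566, listed at one locus with METAP1D and HAT1) was at 7.85, 11.3, 12.9 and 10.4 FPKM with norepinephrine and 12.4, 17.9, 13.2 and 13.2 FPKM in controls. Only norepinephrine 3 exceeded the lowest control. Its log2 difference was -0.39 (SE 0.18, limma unadjusted p = 0.0574, adjusted p = 0.675), with -0.76 within number 09 and -0.18 within number 10. SLC25A13 was at 74.8, 44.6, 43.1 and 46.4 FPKM with norepinephrine and 30.5, 45.0, 47.4 and 45.2 FPKM in controls, so 1 animal of each group stood apart and the other 6 lay together.

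Citrate leaves the mitochondrion through SLC25A1 (chromosome 17, 71797592 to 71799323). It was at 215, 156, 223 and 198 FPKM with norepinephrine and 149.8, 208, 119 and 102 FPKM in controls. Every norepinephrine animal exceeded controls 1, 3 and 4, and control 2 lay among them. The log2 difference of 0.49 (SE 0.22, limma unadjusted p = 0.0562, adjusted p = 0.671) was 0.022 within number 09, 0.35 within number 10 and 0.19 once the prefix entered the model. GPD2, the mitochondrial glycerol-phosphate dehydrogenase of the second NADH shuttle (chromosome 2, 151898521 to 152043557), was at 17.1, 24.9, 21.9 and 16.0 FPKM with norepinephrine and 26.7, 13.0, 23.9 and 21.9 FPKM in controls. Here control 2 was the lowest of all animals.

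**Figure D3:**
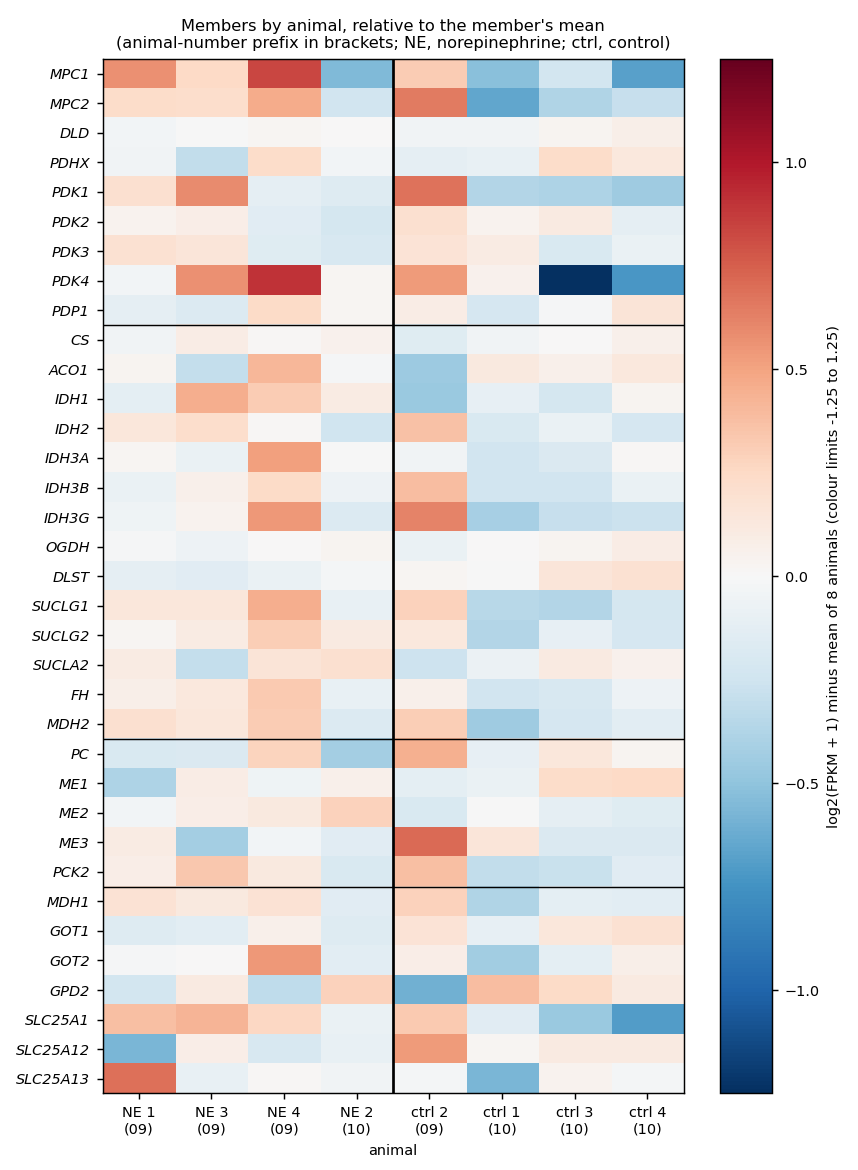
Each member's log2(FPKM + 1) minus its mean over the 8 animals, with norepinephrine animals left and controls right of the heavy line and animals ordered by number prefix within each. Control 2 resembles the norepinephrine animals numbered 09 in MPC1, MPC2, MDH2 and PCK2, and norepinephrine 2 resembles the controls numbered 10.

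Ratios between partner genes do not depend on a library's total, and 9 of 10 planned pairs could be formed. PC/PDHA1 could not, since PDHA1 is not listed. No ratio passed an adjusted p of 0.05 by the exact two-sided permutation test, whose smallest p for 4 against 4 animals is 0.0286. Adjusted over 9 pairs, a single ratio at that smallest p comes to 0.257, so it could not have passed alone. GOT1/GOT2 was the one ratio without overlap: its log2 values were -1.61, -1.49, -1.59 and -1.93 with norepinephrine and -1.12, -1.36, -1.20 and -1.34 in controls. All 4 norepinephrine animals had less cytosolic relative to mitochondrial aminotransferase RNA than any control. GOT1 is listed at the same locus as NKX2-3, so its values, and this ratio, are less certain. The difference was -0.40 (exact permutation p = 0.0286, adjusted p = 0.257), with -0.35 within number 09 and -0.27 within number 10.

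ME1/ME2 differed by -0.37 (exact permutation p = 0.0571, adjusted p = 0.257), with means of 1.21 ± 0.147 with norepinephrine and 1.58 ± 0.224 in controls, and by -0.24 within number 09 and -0.45 within number 10. SLC25A13/SLC25A12 differed by 0.68 (exact permutation p = 0.0857, adjusted p = 0.257), with values of 3.10, 1.89, 1.67 and 2.05 with norepinephrine and 1.24, 1.28, 1.77 and 1.70 in controls, and by 0.99 within number 09 and 0.32 within number 10. The other 6 ratios had adjusted p values from 0.321 to 0.4 by the same exact permutation test. MDH1/MDH2 was among the tightest of them, at 0.088 ± 0.074 with norepinephrine and 0.16 ± 0.051 in controls. Norepinephrine 1 and control 1 both stood apart in SLC25A13. Without norepinephrine 1 alone, SLC25A13/SLC25A12 differed by 0.37, with control 1, the lowest ratio at 1.24, still included.

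**Figure D4:**
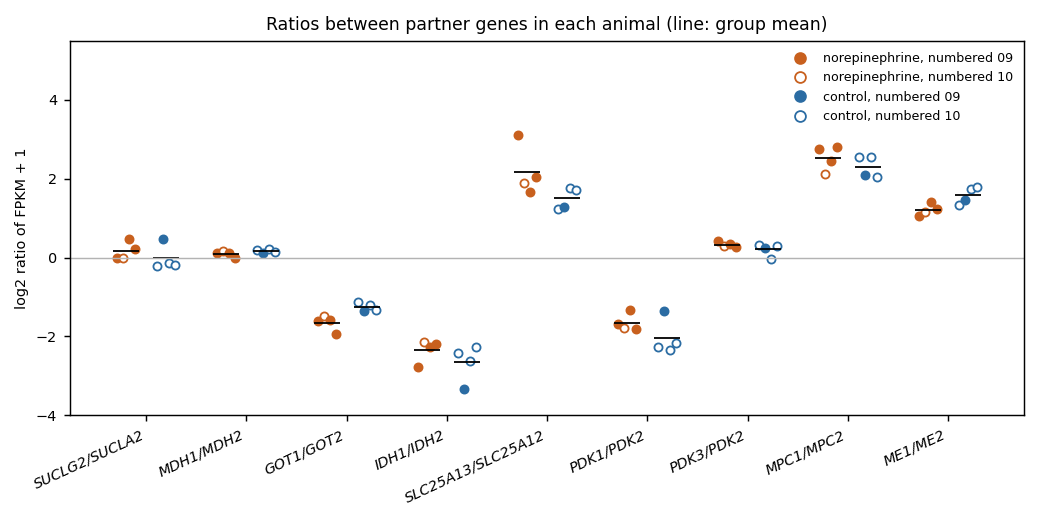
Log2 ratio of FPKM + 1 between partner genes in each animal, norepinephrine left and control right of each pair, with group means as lines, filled points for animals numbered 09 and open points for those numbered 10. Only in GOT1/GOT2 do the groups not overlap, at -1.93 to -1.49 with norepinephrine and -1.36 to -1.12 in controls.

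Between the animal numbers limma, with treatment in the model, called 9 of 35 members (25.7%), animals numbered 10 against 09, at an adjusted p under 0.05, where it called 16.5% of all tested genes. Of these, 8 were lower in animals numbered 10 (22.9%, beside 10.4% of all tested genes) and 1, GPD2, was higher (6.06% of all tested genes). The median log2 difference of the members, 10 minus 09, was -0.20, beside -0.088 for all tested genes. Both subunits of the pyruvate carrier were lower: MPC1 was at 322 to 438 FPKM in animals numbered 10 and 610.0 to 921 FPKM in animals numbered 09 (log2 -0.95, SE 0.18, adjusted p = 0.0172). MPC2 was at 60.6 to 80.5 FPKM in animals numbered 10 and 111 to 149.9 FPKM in animals numbered 09 (log2 -0.82, SE 0.16, adjusted p = 0.0172). IDH2 (log2 -0.45, adjusted p = 0.0229), MDH2 (-0.48, 0.0286), PCK2 (-0.50, 0.0289), MDH1 (-0.40, 0.0371), SLC25A1 (-0.60, 0.0371) and SUCLG1 (-0.46, 0.0380) were lower too. Of all 35 members, 11 lay lower without overlap in animals numbered 10, beside 14.8% of all tested genes. These 8 genes were among the 11. They were called on the same animals, so their lack of overlap is no separate support. GPD2 was at 21.9 to 26.7 FPKM in animals numbered 10 and 13.0 to 21.9 FPKM in animals numbered 09 (log2 0.64, SE 0.16, adjusted p = 0.0346).

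These calls rest on few animals and on the scale. With 1 animal left out the differences of the 9 members kept their sign, for example -1.10 to -0.79 for MPC1, -0.50 to -0.30 for MDH1 and 0.44 to 0.84 for GPD2. The number called changed. Leaving out norepinephrine 1 or 3 left 7 members each (17.2% and 13.7% of all tested genes were called), and norepinephrine 4 left 10 (16.9%). Without control 2, the only control numbered 09, 0 members and 18 genes (0.136% of those tested) were called between the numbers. Leaving out norepinephrine 2 left 1 member (5.33% of all tested genes were called), control 3 left 2 (6.34%), control 1 left 4 (6.60%) and control 4 left 5 (8.52%). With FPKM scaled to equal library totals the median of all tested genes moved by 0.40 in this comparison (by -0.14 in that of treatment), and the split of all called genes went to 4109 higher and 237 lower in animals numbered 10, against 803 higher and 1384 lower as deposited. Of the members 12 were then called, all higher in animals numbered 10 (DLD, PDHX, CS, ACO1, IDH1, OGDH, DLST, SUCLA2, ME1, ME2, GOT1 and GPD2), beside 32.8% of all tested genes, and 0 were called lower. On that scale MDH1 turned to 0.054 and the other 7 genes that were called lower as deposited had values from -0.49 for MPC1 to -0.0029 for IDH2 without passing, while GPD2 stayed higher (1.07). Relative to the shifted median, MPC1 was at -0.81, MPC2 at -0.68, MDH1 at -0.26 and GPD2 at 0.76, beside -0.86, -0.73, -0.31 and 0.73 as deposited. Acinar marker sums were 124 to 158 FPKM in animals numbered 10 and 172 to 1022 FPKM in animals numbered 09, and their part in these differences was not tested.

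**Figure D5:**
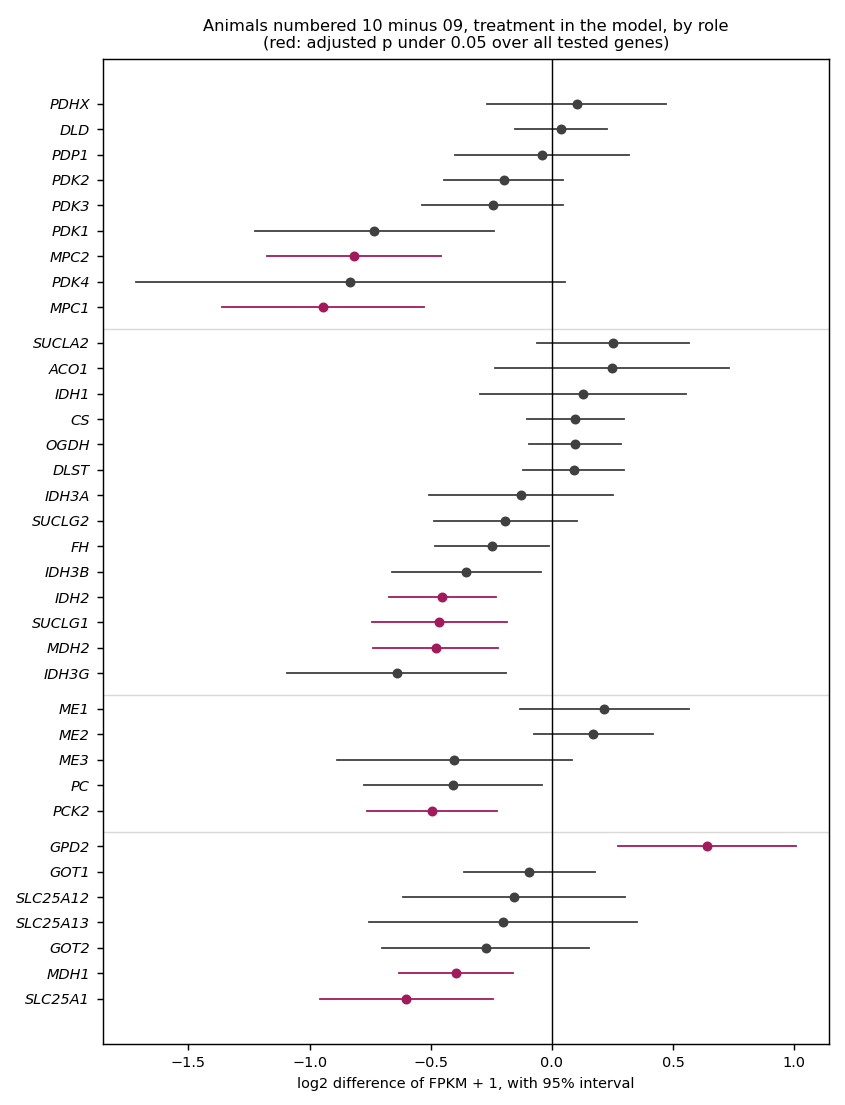
Log2 difference of FPKM + 1 between animals numbered 10 and 09, with treatment in the model, of each member with its 95% interval. The 9 members in red pass an adjusted p of 0.05: GPD2 is higher in animals numbered 10, and MPC1 and MPC2 lie lowest among the 8 others.

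Other genes of the pathway were taken from a list of 29, of which 26 were listed and 23 tested. None passed after adjustment in the treatment comparison, and 1 had an unadjusted p under 0.05 (4.35%, beside 7.36% of all tested genes), with 14 higher and 9 lower means with norepinephrine. That gene was NNT, the transhydrogenase that makes mitochondrial NADPH, at 41.1, 48.3, 37.7 and 34.7 FPKM with norepinephrine and 46.3, 46.0, 54.6 and 56.4 FPKM in controls (log2 -0.33, SE 0.14, limma adjusted p = 0.663). Only norepinephrine 2, numbered 10, reached the control range. NNT was at 46.3 to 56.4 FPKM in animals numbered 10 and 34.7 to 46.0 FPKM in animals numbered 09. Its treatment difference was -0.19 with the prefix in the model, -0.28 within number 09 and -0.11 within number 10. The most abundant were SLC25A3, the mitochondrial phosphate carrier, at 608 ± 101 FPKM with norepinephrine and 537 ± 137 FPKM in controls, and ACLY, which splits cytosolic citrate, at 264 ± 67.0 FPKM with norepinephrine and 285 ± 32.5 FPKM in controls. Between the numbers 5 of the 23 (21.7%) were called, all lower in animals numbered 10, beside 16.5% of all tested genes. Among them were SDHA (log2 -0.56, limma adjusted p = 0.0194) and SDHB (log2 -0.67, limma adjusted p = 0.0228), succinate dehydrogenase subunits of the step before fumarase, SDHA listed at one locus with CCDC127.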

How the data were processed

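RNA of hand-picked islets was sequenced as paired reads from poly(A)-selected TruSeq libraries, each of 1 fetus, per the labels' protocols. The authors deposited FPKM values for 25000 rows with a gene name and a locus. Per the submitters' processing notes, TopHat2 2.0.1, Cufflinks 2.1.1, Cuffdiff and build Oar_v3.1 were used. For annotation, filters and strand nothing is stated in the sources used here. The file holds no counts, so counting intervals were not computed. In rows with few fragments FPKM moves in steps of 1 fragment, which put depth relative to control 1 at 0.649 (norepinephrine 1), 1.01 (norepinephrine 2), 0.725 (norepinephrine 3) and 1.08 (control 4). The other 3 shared no such step in 200 or more rows, and their depth is unknown. Columns were matched to animals by the animal number, and 0 value columns were left out. Locus starts were raised by 1 to count from 1. A locus can span several rows, as for 11 members, whose values are then less certain. These are PDHX, PDK3, IDH3A, IDH3G, MDH2, PC, ME3, MDH1, GOT1, SLC25A12 and SLC25A13.

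Tests used log2(FPKM + 1), on which changes of low genes come out too small, in rows with a mean of at least 1 FPKM. limma 3.58.1 in R 4.3.3 (intensity trend, two-sided, Benjamini-Hochberg over 13252 genes, threshold 0.05) compared norepinephrine with control, and, with treatment in the model, animals numbered 10 with 09. Partner ratios were compared by exact permutation and adjusted over 9 pairs. Fits with other pseudocounts, filters, scalings, covariates and a replicate block, and without each animal, were alternatives.

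All members were named, with each animal's values for those with an unadjusted p under 0.05, without overlap between groups, called between animal numbers (at most 6) or most abundant in their role. Others shown by animal were chosen after their values were seen. One gene of the pathway list is counted but not reported here by name. The members and lists were chosen with earlier results of these data known. Norepinephrine and control animals of the same replicate number are different fetuses, and the main comparison did not treat them as pairs.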

Additional observations from a re-analysis of the deposited data

Results flagged for a closer look

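Over the 35 members and both groups (70 groups of 4 animals), 9 values stood farther from the other 3 animals of their group than Dixon's criterion allows. For independent groups of normal values chance flags about 1 in 20. These 70 groups come from the same animals and are not independent, so the count cannot be judged by that rate. In 4 genes it was control 2, the only control numbered 09: PDK1 at 25.4 FPKM (the other controls at most 11.8), IDH3G at 28.1 (at most 14.8), SLC25A12 at 17.9 (at most 13.2) and ACO1 at 11.8 (the others at least 17.3). Norepinephrine 4 stood apart in 3 genes: IDH3A at 59.3 FPKM (the others of its group at most 41.9), GOT1 at 40.2 (at most 34.9) and GOT2 at 156 (at most 107). SLC25A13 had an outlying value in each group, 74.8 FPKM in norepinephrine 1 (the others at most 46.4) and 30.5 FPKM in control 1 (the others at least 45.0).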

How the results depend on the processing

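No member passed the threshold between treatments under any setting run. All members kept their direction with a pseudocount of 0.1. Either other filter and the variance trend enter the p-values only, so the differences were the same there by construction. Partner ratios changed sign in 0 cases and none passed. With 1 animal left out none could have passed, since the smallest p of the exact permutation test is then 0.0571. Over all genes, 1 passed with equal library totals and 1 with the number prefix in the model, and 0 to 2 when 1 animal was left out. The count of members with an unadjusted p under 0.05 was 3 with equal totals (7.87% of all tested genes were under it), 0 without the variance trend (7.22%), 4 with the prefix (11.7%), 2 with gestational age (7.91%), 4 with fetal weight (8.81%), 2 with equal upper quartiles (7.58%, chosen after seeing the data), and 0 to 9 with 1 animal left out (4.49% to 16.6%). With the replicate block it was 0 (4.87%), and no other call changed under the block. The correlation of deviations of same-numbered animals ran from -0.38 to 0.093, so the numbers did not pair them. The members' median turned to -0.068 with equal totals, -0.11 with gestational age and -0.15 with fetal weight in the model. The median of all tested genes was -0.12, -0.044 and -0.046 under these settings in the same order.

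Directions of members reversed as follows, none past the threshold, and the cause was not tested. With equal totals these were CS (-0.093), ACO1 (-0.077), IDH2 (-0.094), IDH3B (-0.072) and SUCLA2 (-0.068). The median of all tested genes was then -0.12, and relative to it these members stayed above 0, at 0.031, 0.047, 0.030, 0.052 and 0.055 in the same order. With the prefix in the model they were MPC2 (-0.073), DLD (0.012), PDK1 (-0.11), IDH2 (-0.17), IDH3B (-0.095), IDH3G (-0.14), OGDH (0.024), PCK2 (-0.072), MDH1 (-0.026) and GPD2 (0.25). With gestational age they were MPC1 (-0.31), MPC2 (-0.29), DLD (0.0044), ACO1 (-0.076), IDH2 (-0.14), IDH3A (-0.11), IDH3B (-0.22), IDH3G (-0.45), OGDH (0.011), SUCLG1 (-0.11), FH (-0.024), MDH2 (-0.14), ME1 (0.061), PCK2 (-0.054), MDH1 (-0.11), GOT2 (-0.21) and GPD2 (0.52). With fetal weight they were MPC1 (-0.19), MPC2 (-0.49), PDK1 (-0.36), IDH2 (-0.33), IDH3B (-0.28), IDH3G (-0.44), OGDH (0.031), SUCLG1 (-0.11), FH (-0.047), MDH2 (-0.27), PCK2 (-0.31), MDH1 (-0.26), GOT2 (-0.23), GPD2 (0.53) and SLC25A13 (-0.029). With equal upper quartiles they were DLD (0.00012) and PDK3 (0.0069). Leaving out 1 animal, the values that crossed 0 were DLD (-0.024 to 0.016), PDP1 (-0.092 to 0.043), PDK3 (-0.063 to 0.065), PDHX (-0.17 to 0.0095), IDH2 (-0.0035 to 0.19), ACO1 (-0.069 to 0.18), GPD2 (-0.28 to 0.047), OGDH (-0.055 to 0.0040).

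Between animal numbers 4346 genes and 12 members were called with equal totals, and 18 (without control 2) to 2280 (without norepinephrine 1) with 1 animal left out, where 0 to 10 members were called. With equal totals MDH1 turned to 0.054. No fragment counts stand behind these FPKM, so the depth limit of single values is not known.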

Other observations

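Lactate genes, which beta cells are known to keep low, stood beside the pathway and are given as values chosen after they were seen. LDHA, lactate dehydrogenase A, was at 50.8, 36.9, 110.2 and 105 FPKM with norepinephrine and 40.2, 115, 48.9 and 52.7 FPKM in controls (log2 0.21, SE 0.42, limma adjusted p = 0.913). Between the numbers LDHA was at 36.9 to 52.7 FPKM in animals numbered 10 and 50.8 to 115 FPKM in animals numbered 09 (log2 -1.22, limma adjusted p = 0.0278), a difference that exceeded that of any member. SLC16A1, a lactate and pyruvate carrier of the plasma membrane, stood at 14.2 ± 3.42 FPKM with norepinephrine and 14.3 ± 4.03 FPKM in controls (SD, n = 4 each). The row named LDHB, at a locus of only 1017 bases on chromosome 15, was below the abundance filter, with a mean of 0.236 FPKM. Whether this row covers the whole gene was not tested, so its value need not be the level of LDHB in these islets.

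PDPR, which regulates the pyruvate dehydrogenase phosphatase, was at 3.98, 7.07, 5.25 and 3.39 FPKM with norepinephrine and 7.12, 5.24, 10.8 and 7.75 FPKM in controls (log2 -0.56, SE 0.25, limma unadjusted p = 0.0505, adjusted p = 0.666). With the prefix in the model the difference of PDPR was -0.25.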
